A study of Mus musculus with 112 samples.

Results

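The cerebral cortex of DBA/2J mice was examined for its transcriptional response to calorie restriction (CR). The 16 arrays whose labels give the strain DBA/2J were used, of 112 arrays from 7 strains, and they were made of 8 CR arrays and 8 control arrays. Each array held cortical RNA of 1 male mouse. DBA/2J is an inbred strain. All mice were bought at 6 weeks of age and were housed singly on a purified diet of the AIN93M type. From 8 weeks of age the CR mice received a restricted ration, while the control mice stayed on the control diet. Both groups were fasted overnight before death at 22 weeks of age. The other 6 strains, with 96 arrays split evenly between the diets, were B6C3F1/J, CBA/J, C3H/HeJ, C57BL6/J, Balbc/J and 129S1/SvImJ. Allotments of food differed between sets of strains, so strain and ration cannot be fully told apart. The question was which genes differed between CR and control cortex in DBA/2J, and whether those differences were those of the other strains.

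CR is a reduction in food intake without malnutrition, and it extends lifespan in many laboratory animals. In brain it is studied for its links to proteostasis, the set of systems that fold, repair and degrade proteins, and to the clock, hormonal and metabolic pathways that follow feeding. Glucocorticoids rise in the blood of food-restricted rodents and act on neurons and glia through a nuclear receptor. Rations given at set times can also shift the phase of clock genes in peripheral tissues.

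All 16 arrays were closest to the DBA/2J profile over 200 strain-informative genes, and no 2 arrays of the series were identical. Values are log2 signals, and array medians lay between 7.17 and 7.22. A few arrays stood apart for markers of other brain regions, and whether the dissections differed was not tested. Control 8 had a mean of 8.82 over the 13 measured cerebellar markers, against 7.45 to 7.56 in the CR arrays and 7.29 to 7.61 in the other control arrays. CR 1 and CR 2 had means of 8.13 and 7.73 over the 9 measured hypothalamic markers, against 6.57 to 6.77 in the other CR arrays and 6.56 to 6.93 in the control arrays. Where leaving out these arrays moved a printed difference or list median by over 1.5 times, the value without them is given. In bulk tissue, fewer cells of a type and less RNA per cell cannot be told apart.

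No gene passed the test in DBA/2J. In limma, with Benjamini-Hochberg adjustment over 19938 genes, 0 genes (0%) had an adjusted p under 0.05, and the lowest adjusted p was 0.143. At an unadjusted p under 0.05 limma gave 1128 genes (5.66%), and at the stricter unadjusted 0.01 it gave 286 genes (1.43%). Those under 0.05 were 735 genes with CR higher (3.69%) and 393 with CR lower (1.97%). Of the 286 genes, 211 (1.06% of all genes) were higher in CR cortex and 75 (0.376%) were lower. The methods' t-test on the 16 arrays gave 336 genes at 0.01, of which 161 were among limma's 286, and 0 genes after adjustment. Over all genes, 10239 differences (51.4%) lay above 0 and 9699 (48.6%) below 0. The differences were small. The 95% interval lay within a change of 20% in either direction for 16454 genes (82.5%). The median standard error of a difference was 0.0681 log2 units. The genes described next were chosen for a small p, so their values are descriptions of this experiment, and each is CR minus control on the log2 scale with its standard error.

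The 2 genes with the smallest p encode subunits of the proteasome, the protease complex that degrades ubiquitin-tagged proteins. Psma6, an alpha-ring subunit of the catalytic core, had log2 signals of 10.16, 10.22 and 10.33 in CR cortex (lowest, median and highest of 8 arrays, the order used for every such set of 3 values). In control cortex it had 9.89, 10.002 and 10.23. The difference was 0.20 ± 0.04, or 14.8%, with a limma adjusted p of 0.143, and all 8 CR arrays lay above the control median. Psmb4, a beta-ring subunit, had 10.86, 10.88 and 10.94 in CR cortex, against 10.56, 10.76 and 10.85 in control cortex. The 8 CR arrays all lay above the highest control array, and the difference was 0.16 ± 0.04, or 11.9%. Replicate spread was smaller under CR for both genes, with SDs of 0.05 for Psma6 and 0.03 for Psmb4 in CR cortex, against 0.12 and 0.09 in control cortex.

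Other proteasome genes lay the same way by smaller amounts. Psmb2, another beta-ring subunit, differed by 0.13 ± 0.04, and 7 of 8 CR arrays lay above every control array. Psmd2 and Psmd1, scaffold subunits in the base of the regulatory particle, differed by 0.10 ± 0.03 and 0.11 ± 0.04. Of 25 measured proteasome genes, 18 were above 0, against 51.4% of all genes. An unadjusted p under 0.01 was reached by 5 with CR higher, against 1.06% of all genes, and by 0 with CR lower, against 0.376%. None passed the adjusted test. The median difference of the list was 0.05, against 0.002 over all genes tested, and the range was -0.05 to 0.20. Without control 8 the median was 0.04 and 3 of the 5 kept an unadjusted p under 0.01. In the mean of the other 6 strains the median of the same genes was 0.01. For Psma6 the other strains averaged 0.01, with single strains between -0.09 and 0.14. The DBA/2J difference minus that mean was 0.19 ± 0.05, with an adjusted p of 0.55 in limma.

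**Figure D1:**
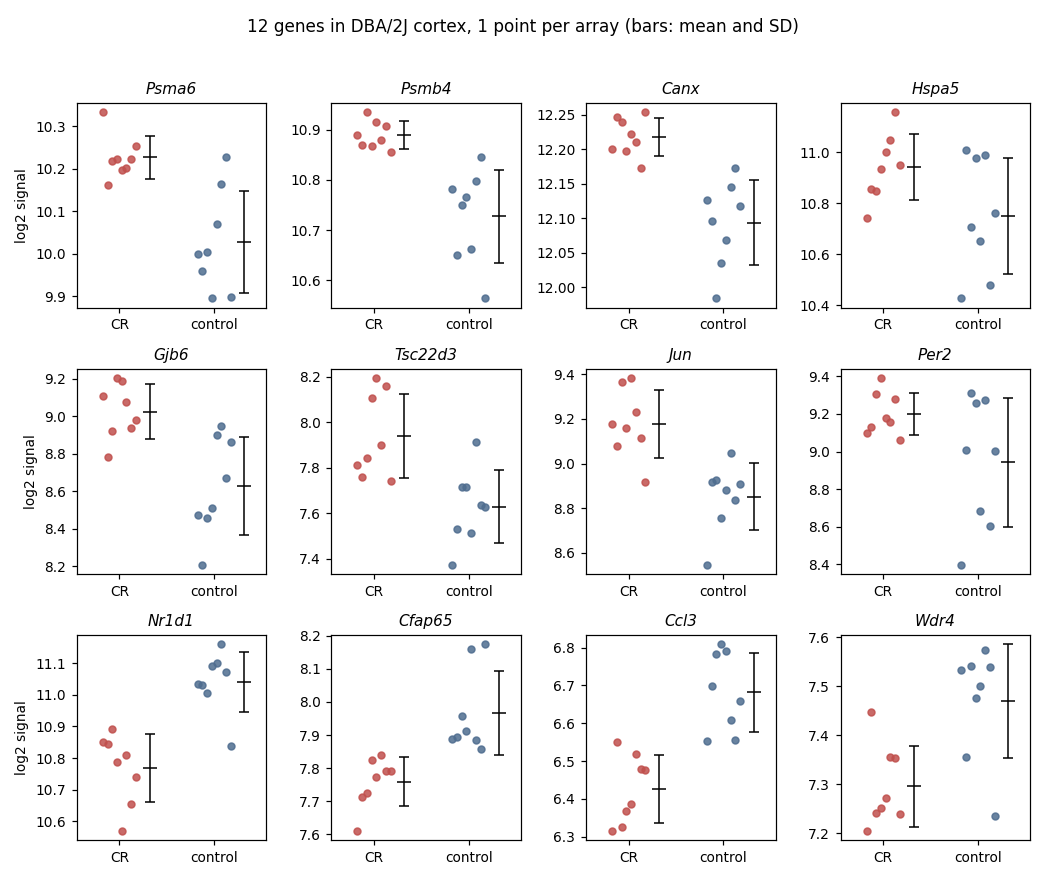
Log2 signal (vertical axes, a separate scale for each gene) of 12 genes in the 8 CR and 8 control arrays of DBA/2J cortex, with 1 point per array and bars for the mean and SD. The CR and control points of Psmb4, Cfap65 and Ccl3 do not overlap, whereas those of Hspa5 and Per2 overlap.

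Genes of protein folding in the endoplasmic reticulum (ER) were mostly higher in CR cortex. Of 20 measured chaperones and folding enzymes, 18 were above 0, against 51.4% of all genes. Their median was 0.10, with a range of -0.08 to 0.20. An unadjusted p under 0.01 was reached by 3 with CR higher, against 1.06% of all genes, and by 0 with CR lower, against 0.376%. None passed the adjusted test. Leaving out control 8 left the median at 0.10. Canx, the membrane-bound lectin chaperone calnexin, had 12.17, 12.22 and 12.25 in CR cortex, against 11.98, 12.11 and 12.17 in control cortex. Its difference was 0.12 ± 0.04, or 9.0%, and 7 of 8 CR arrays lay above every control array. Hspa5, which encodes the ER chaperone BiP, had 10.74, 10.94 and 11.16 in CR cortex, against 10.43, 10.73 and 11.01 in control cortex. The groups overlapped for Hspa5, and the difference was 0.19 ± 0.08 with an adjusted p of 0.80 in limma. Among the co-chaperones and prolyl isomerases, Dnajb11 differed by 0.20 ± 0.07, Dnajc3 by 0.15 ± 0.07 and Ppib, the ER cyclophilin B, by 0.10 ± 0.03.

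Several of these genes carry the ER stress element, a promoter sequence bound under ER stress by the factors NF-Y and ATF6. The element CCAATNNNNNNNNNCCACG was searched on both strands in the 250 bases before the transcription start of the RefSeq genes (build GRCm38.p6). It was present in 8 of 18 ER genes with a promoter entry (44.4%), against 35 of 27025 genes with an entry (0.13%). The reference promoters are not from DBA/2J mice. The sequences are shown, with the element in capitals, because it is the feature that these members share. The promoter of Hspa5 lies on the plus strand at chr2:34771840-34772089 and that of Canx on the minus strand at chr11:50325674-50325923. For the other genes the element is given with 8 bases on each side, and in Calr and Creld2 it reads on the opposite strand.
Hspa5: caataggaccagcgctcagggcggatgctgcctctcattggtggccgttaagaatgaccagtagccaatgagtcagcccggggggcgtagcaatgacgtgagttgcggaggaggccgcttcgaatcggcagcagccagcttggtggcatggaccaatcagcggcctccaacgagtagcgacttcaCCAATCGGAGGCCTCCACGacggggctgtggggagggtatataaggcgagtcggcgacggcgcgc
Canx: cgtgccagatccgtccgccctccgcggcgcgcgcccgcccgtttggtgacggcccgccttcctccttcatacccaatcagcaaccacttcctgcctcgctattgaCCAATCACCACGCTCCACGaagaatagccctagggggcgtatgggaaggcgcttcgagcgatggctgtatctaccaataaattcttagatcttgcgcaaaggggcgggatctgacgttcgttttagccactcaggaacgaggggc
Dnajc3, plus strand, chr14:118937819-118937853: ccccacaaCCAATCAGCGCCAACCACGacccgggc
Pdia6, plus strand, chr12:17266483-17266517: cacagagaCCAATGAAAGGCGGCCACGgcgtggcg
Creld2, plus strand, chr15:88819512-88819546: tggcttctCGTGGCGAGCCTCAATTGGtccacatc
Calr, minus strand, chr8:84847067-84847101: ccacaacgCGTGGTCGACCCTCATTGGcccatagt
Hsp90b1, minus strand, chr10:86705630-86705664: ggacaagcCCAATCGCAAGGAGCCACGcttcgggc
Syvn1, plus strand, chr19:6046524-6046558: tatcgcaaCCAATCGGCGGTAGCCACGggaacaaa

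The element did not sort the ER genes by their differences. The 8 genes with it had a median of 0.13 with 7 above 0, and the 10 genes without it had a median of 0.10 with 10 above 0. Within the 8 genes, Hspa5 differed by 0.19 ± 0.08, Pdia6, a disulfide isomerase, by 0.15 ± 0.07, and Creld2, an ER stress-induced secreted protein, by 0.14 ± 0.07. Hsp90b1, the ER form of the HSP90 chaperone, carries the element at 2 places and differed by 0.01 ± 0.05. Syvn1, a ubiquitin ligase of ER-associated degradation, differed by -0.003 ± 0.04. A match is a description of the letters in this window, and binding was not measured. In the mean of the other strains the ER list had a median of 0.06, and Hspa5 was higher by 0.18, with single strains between 0.13 and 0.30.

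Genes known to be induced by glucocorticoids were higher in CR cortex for 17 of 18 measured members, with a median of 0.13 and a range of -0.08 to 0.40. At an unadjusted p under 0.05 there were 7 of 18 genes with CR higher, against 3.69% of all genes, and 0 with CR lower, 3 of the 7 were under 0.01, and none passed the adjusted test. The median was 0.12 without control 8 and -0.003 in the mean of the other 6 strains. Tsc22d3, which encodes the hormone-induced leucine zipper protein GILZ, had 7.74, 7.87 and 8.19 in CR cortex, against 7.37, 7.63 and 7.91 in control cortex. All 8 CR arrays were above the control median and 3 of them above the highest control array, and the difference was 0.31 ± 0.08, or 24.0%, with an adjusted p of 0.296 in limma. Fkbp5, a co-chaperone that restrains the glucocorticoid receptor, had 7.93, 8.08 and 8.42 in CR cortex, against 7.63, 7.80 and 7.96 in control cortex. For Fkbp5, 6 of 8 CR arrays lay above every control array, and the difference was 0.30 ± 0.10. Zbtb16, a zinc-finger transcription factor, differed by 0.40 ± 0.17 and Plin4, a lipid droplet coat protein, by 0.26 ± 0.11, both with overlapping groups. Single strains ranged from -0.08 to 0.30 for Tsc22d3 and from 0.02 to 0.37 for Fkbp5. They ranged from -0.24 to 0.36 for Zbtb16 and from -0.17 to 0.30 for Plin4. The highest of the other strains was C57BL6/J for each of these genes, at values near those of DBA/2J.

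The third glucocorticoid-list gene under 0.01 was Gjb6, which encodes a gap junction protein and is also a marker of astrocytes. It had 8.78, 9.03 and 9.20 in CR cortex, against 8.21, 8.59 and 8.94 in control cortex. The difference was 0.40 ± 0.10, or 31.5%, 5 of 8 CR arrays lay above every control array, and the adjusted p was 0.253. Gja1, the main connexin of astrocytes, differed by 0.11 ± 0.04. Etnppl, an astrocyte enzyme that breaks down phosphoethanolamine, had 6.74, 7.24 and 7.70 in CR cortex, against 6.18, 6.65 and 7.50 in control cortex, a difference of 0.60 ± 0.19. With the thalamic marker level as a covariate the Etnppl difference was 0.28 and that of Gja1 was 0.06, while that of Gjb6 was 0.33. Of 14 astrocyte markers, 10 were above 0 with a median of 0.05, which was 0.02 without CR 1 and CR 2, and the array means over the list ran from 9.87 to 10.02 in CR cortex, against 9.78 to 9.90 in control cortex. Aldh1l1, a folate enzyme found throughout the astrocyte class, differed by 0.09 ± 0.05, and Acsbg1, an astrocyte acyl-CoA synthetase, by -0.09 ± 0.06, or -0.14 with the thalamic covariate. Slc38a3, a glutamine transporter that astrocytes also carry, lay the other way, with 9.75, 9.89 and 10.05 in CR cortex, against 9.99, 10.11 and 10.27 in control cortex. Its difference was -0.23 ± 0.06, and 7 of 8 CR arrays lay below every control array. The part of cell numbers in these values was not tested.

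Immediate early genes, which neurons transcribe within minutes of activity, had the highest median of the 25 pathway lists. All 23 measured members were above 0 in CR minus control, with a median of 0.18 and a range of 0.002 to 0.43. Of these 23, 1 reached an unadjusted p under 0.05 with CR higher, near the share of 3.69% among all genes. None passed the adjusted test. Without control 8, 20 of the 23 were above 0 and the median was 0.12. The median was 0.01 in the mean of the other 6 strains. The spread between mice was as wide as the difference, since the SD of the list's array medians was 0.206. Jun, a subunit of the AP-1 transcription factor, was the 1 member with a small p. It had 8.92, 9.17 and 9.38 in CR cortex, against 8.55, 8.89 and 9.05 in control cortex. For Jun, 7 of 8 CR arrays lay above every control array, and the difference was 0.33 ± 0.08, or 25.4%, with an adjusted p of 0.196. Nr4a2, an orphan nuclear receptor, differed by 0.43 ± 0.23, Dusp1, a MAP kinase phosphatase that glucocorticoids also induce, by 0.31 ± 0.20, and Fosl2, another AP-1 subunit, by 0.22 ± 0.12. These genes had overlapping groups. Without CR 1, CR 2 and control 8 the Dusp1 difference was 0.16. Single other strains ran from -0.20 to 0.25 for Nr4a2, from -0.58 to 0.27 for Dusp1 and from -0.12 to 0.37 for Fosl2. C57BL6/J was the highest of them for each of these genes.

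**Figure D2:**
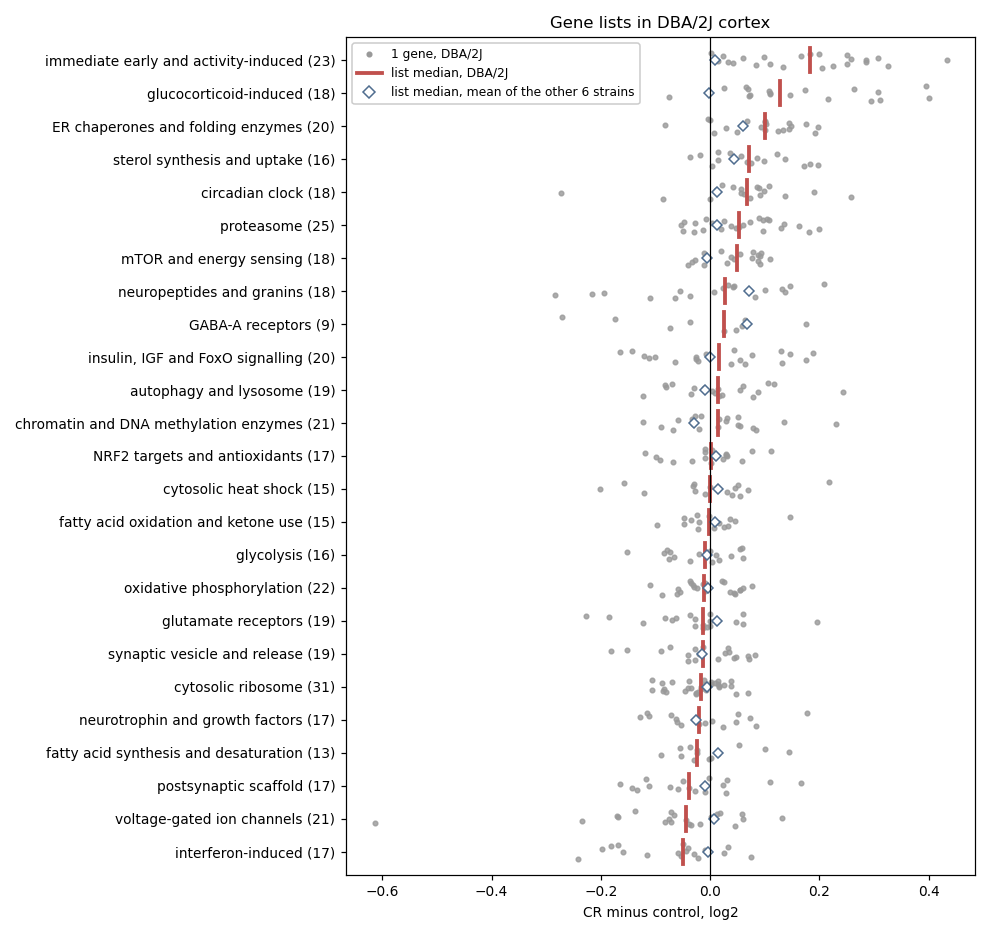
CR minus control in DBA/2J cortex (horizontal axis, log2) for the measured genes of 25 pathway lists, with 1 grey point per gene, a red bar for the DBA/2J median and a blue diamond for the median in the mean of the other 6 strains. The immediate early, glucocorticoid-induced and ER lists have the highest DBA/2J medians (0.18, 0.13 and 0.10), and the interferon-induced list has the lowest (-0.05).

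Most clock genes lay above 0, while Nr1d1 and Arntl lay below it. The mammalian clock is a loop in which the activators BMAL1 and CLOCK drive the Per and Cry repressors, while NR1D1 (REV-ERB alpha) represses Arntl, the gene of BMAL1. Nr1d1 had 10.57, 10.80 and 10.89 in CR cortex, against 10.84, 11.05 and 11.16 in control cortex. The 8 CR arrays all lay below the control median and 5 of them below every control array, and the difference was -0.27 ± 0.08, or -17.2%, with an adjusted p of 0.369. The repressor Per2 had 9.06, 9.17 and 9.39 in CR cortex, against 8.40, 9.005 and 9.31 in control cortex, a difference of 0.26 ± 0.08. Control arrays of Per2 were widely spread, with an SD of 0.11 in CR cortex and 0.35 in control cortex. Per3, a close relative of Per2, differed by 0.14 ± 0.05, and Rora, an activator that competes with NR1D1, by 0.19 ± 0.12. Rora is also on the list of thalamic markers, and its difference was 0.10 with the thalamic marker level as a covariate and 0.11 with the striatal one.

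Arntl differed by -0.09 ± 0.06, and by -0.14 without control 8, -0.05 without either CR 1 or control 1, and -0.02 without CR 1 and CR 2. Of 18 measured clock genes, 16 were above 0, against 51.4% of all genes, with a median of 0.07. Without control 8, 13 of the 18 were above 0 and the median was 0.04. The hour of death was not analysed here. For 4 of these genes DBA/2J lay close to the mean of the other strains, although single strains differed. Single strains ran from -0.47 to -0.09 for Nr1d1 and from -0.11 to 0.50 for Per2. They ran from -0.02 to 0.28 for Per3 and from -0.21 to 0.07 for Arntl. The mean of the other strains was -0.27 for Nr1d1, 0.20 for Per2, 0.12 for Per3 and -0.09 for Arntl, and the DBA/2J differences minus these means were -0.01 ± 0.08, 0.06 ± 0.09, 0.01 ± 0.06 and 0.004 ± 0.06. The E-box CACGTG, the element that BMAL1 and CLOCK bind, was present in the 250-base promoter windows of 5 of 16 clock genes with an entry (31.2%), against 1854 of 27025 genes (6.86%). Those 5 were Per1, Cry1, Tef, Ciart and Bhlhe41, and Nr1d1, Per2, Per3, Rora and Arntl were not among them.

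Genes outside the lists also had small p values. The histone variant gene Macroh2a1, whose product is enriched on silent chromatin, had 9.94, 10.04 and 10.16 in CR cortex, against 9.69, 9.84 and 9.92 in control cortex. Its groups did not overlap, and the difference was 0.21 ± 0.06, or 0.14 with the thalamic marker level as a covariate. Phf5a, a splicing factor subunit, had 10.26, 10.43 and 10.47 in CR cortex, against 10.04, 10.19 and 10.35 in control cortex, a difference of 0.20 ± 0.05. Slc25a38, the mitochondrial glycine carrier needed for haem synthesis, differed by 0.18 ± 0.04 with 7 of 8 CR arrays above every control array. Ddx6, an RNA helicase of processing bodies, differed by 0.14 ± 0.04.

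Lipid, vascular and chemosensory genes were also among those with CR higher. Slc27a2, a fatty acid transporter and acyl-CoA synthetase, had 7.28, 7.46 and 7.77 in CR cortex, against 6.71, 7.17 and 7.42 in control cortex, a difference of 0.37 ± 0.10. Fmo2, a flavin-containing monooxygenase, had 6.77, 6.97 and 7.06 in CR cortex, against 6.13, 6.65 and 6.82 in control cortex, a difference of 0.39 ± 0.10. Rtp1, a chaperone of odorant receptors, differed by 0.39 ± 0.10. Vegfa, the main angiogenic growth factor, had 9.30, 9.35 and 9.51 in CR cortex, against 9.02, 9.16 and 9.38 in control cortex, a difference of 0.18 ± 0.05. The chromatin list, by contrast, stayed near the level of all genes, with 11 of 21 members above 0 and a median of 0.01, or -0.002 without CR 1 and CR 2, although the histone deacetylase gene Hdac4 differed by 0.23 ± 0.09.

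Among genes lower in CR cortex, Wdr4 had the smallest p. It encodes a partner of the METTL1 enzyme that methylates transfer RNA, and it had 7.21, 7.26 and 7.45 in CR cortex, against 7.24, 7.52 and 7.58 in control cortex. The difference was -0.17 ± 0.04, or -11.4%, with an adjusted p of 0.143, and control 8, at 7.24, was the lowest control array. Without control 8 the difference was -0.21 and the adjusted p was 0.0093, over a range of 0.0080 to 0.56 in all alternatives tried. Cfap65, a gene of ciliary and flagellar structure, had 7.61, 7.78 and 7.84 in CR cortex, against 7.86, 7.90 and 8.17 in control cortex. The groups of Cfap65 did not overlap, and the difference was -0.21 ± 0.05. Ccl3, a chemokine made by microglia and macrophages, had 6.32, 6.43 and 6.55 in CR cortex, against 6.55, 6.68 and 6.81 in control cortex. For Ccl3 every CR array lay below every control array, and the difference was -0.25 ± 0.06.

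Apcdd1, an inhibitor of WNT signalling, had 8.08, 8.22 and 8.45 in CR cortex, against 8.20, 8.51 and 8.75 in control cortex, a difference of -0.26 ± 0.06. Mmp14, a membrane-bound matrix protease, differed by -0.18 ± 0.05, and Msrb1, a selenoprotein that repairs oxidised methionine, by -0.22 ± 0.06. Prrt1, which encodes a protein associated with AMPA receptors, differed by -0.25 ± 0.07, and by -0.15 without control 8, whose signal of 9.14 stood above the other control arrays. Stard10, a phospholipid transfer protein, differed by -0.17 ± 0.05, and Insyn1, a protein of inhibitory synapses, by -0.18 ± 0.05. Over all 19938 genes the 2 groups did not overlap for 9 genes with CR higher (0.0451%) and for 5 with CR lower (0.0251%). The 9 genes were Psmb4, Macroh2a1, Pdcd11, F730043M19Rik, Prxl2a, Ms4a6c, Mapre2, Ncbp1 and Olfr136, and the 5 genes were Cfap65, Ccl3, Adgrl1, Miox and Erf. They were listed for this pattern after their values were seen.

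Oxidative phosphorylation, ribosomal, glycolytic and fatty acid synthesis genes had medians near that of all genes, whereas sterol genes lay above it. The 22 measured oxidative phosphorylation genes had a median of -0.01, with 9 above 0, and the 95% interval lay within 20% for all 22. Cytosolic ribosomal proteins had a median of -0.02 over 31 genes, and 30 of the 31 intervals lay within 20%. The glycolysis list held 16 measured genes. Among them was Pigq, which was matched to the listed symbol Gpi1 through a synonym and is not a glycolytic enzyme. The median of the 16 was -0.01, and 1 of them, against 1.43% of all genes, reached an unadjusted p under 0.01. That gene was Eno2, the neuronal enolase, with 11.50, 11.63 and 11.72 in CR cortex, against 11.64, 11.76 and 11.86 in control cortex, a difference of -0.15 ± 0.05. Fatty acid synthesis had a median of -0.02 over 13 genes, and Elovl6, an elongase of long-chain fatty acids, differed by 0.14 ± 0.05. Without control 8 the oxidative phosphorylation and glycolysis medians were both -0.03 and that of fatty acid synthesis was -0.01. Sterol synthesis and uptake had 14 of 16 genes above 0 and a median of 0.07. In that pathway the mevalonate enzymes Mvk and Fdps differed by 0.12 ± 0.05 and 0.18 ± 0.07, Idi1, an isomerase between them, by 0.20 ± 0.10, and Sqle, the squalene epoxidase, by 0.17 ± 0.09. The Fdps difference was 0.12 without CR 1, CR 2 and control 8.

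The insulin and autophagy lists also lay near the level of all genes. The insulin, IGF and FoxO list had 10 of 20 members above 0 and a median of 0.02, or 0.03 without CR 1 and CR 2. Irs2, the insulin receptor substrate that FoxO factors induce, had 8.72, 8.87 and 9.01 in CR cortex, against 8.40, 8.68 and 9.04 in control cortex, a difference of 0.18 ± 0.07, and every CR array lay within the control range. Txnip, a FoxO- and glucose-responsive inhibitor of thioredoxin, differed by 0.19 ± 0.09, and Igf1, the growth factor itself, by 0.13 ± 0.06. Akt2, also on that list, lay the other way at -0.11, or -0.06 without CR 1 and CR 2. Autophagy and lysosome genes had a median of 0.01 over 19 members, or 0.0005 without control 8. Atg3, the enzyme that lipidates LC3, had 9.31, 9.42 and 9.59 in CR cortex, against 8.90, 9.18 and 9.42 in control cortex, a difference of 0.24 ± 0.08. Ctsl, a lysosomal protease, differed by 0.12 ± 0.04, and by 0.08 without control 8. Lamp1 and Ctsb, of the same list, lay the other way at -0.08 each, and Lamp1 at -0.12 without CR 1 and CR 2. The cytosolic heat shock list had 7 of 15 genes above 0. In it the HSP70 co-chaperone gene Dnaja1 differed by -0.20 ± 0.07, while Chordc1 differed by 0.22.

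Synaptic lists lay near or slightly below 0. The postsynaptic scaffold list had 5 of 17 members above 0 with a median of -0.04, but 8 of 17 and a median of -0.001 without CR 1 and CR 2. In it Shank3, a scaffold of excitatory synapses, had 8.92, 9.11 and 9.32 in CR cortex, against 9.07, 9.28 and 9.47 in control cortex. Its difference was -0.17 ± 0.05. Voltage-gated ion channels had 7 of 21 members above 0 with a median of -0.04, or -0.02 without CR 1 and CR 2, and Hcn2, a pacemaker channel, differed by -0.17 ± 0.06. The synaptic vesicle and release list had 9 of 19 members above 0 with a median of -0.01, but 13 of 19 and a median of 0.02 without CR 1 and CR 2. In it Cplx2, a complexin that clamps vesicle fusion, differed by -0.15 ± 0.06. In the GABA-A receptors the subunits lay on both sides. Gabrd, the delta subunit of receptors outside the synapse, had 8.38, 8.78 and 9.07 in CR cortex, against 8.80, 9.06 and 9.29 in control cortex, a difference of -0.27 ± 0.10. Gabrb1, a beta subunit, differed by 0.18 ± 0.07.

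Immune and vascular lists were on the lower side. Of 17 interferon-induced genes, 3 were above 0, the median was -0.05, and 4 of the 17 had an unadjusted p under 0.05 with CR lower, against 1.97% of all genes, while 0 had it with CR higher. Ifit1, an antiviral RNA-binding protein, had 6.59, 6.69 and 6.96 in CR cortex, against 6.59, 6.90 and 7.42 in control cortex, a difference of -0.24 ± 0.10. Microglial markers were above 0 for 1 of 11 genes, with a median of -0.09 in DBA/2J and 0.03 in the mean of the other strains. The DBA/2J median was -0.06 without control 8 and -0.11 without CR 1 and CR 2. Tmem119, a marker of resident microglia, differed by -0.13 ± 0.06. Endothelial and mural markers were above 0 for 0 of 9 and 0 of 9 genes, with medians of -0.09 and -0.07, and among them Cdh5, the adhesion protein VE-cadherin, differed by -0.12 ± 0.06 and the mural marker Mcam by -0.18 ± 0.07. Myelin and oligodendrocyte markers were above 0 for 3 of 13 genes with a median of -0.06, or -0.09 without CR 1 and CR 2. None of these genes passed the adjusted test. The share of all genes above 0 was 51.4%.

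Some markers of other brain regions were among the genes furthest from 0. Slc17a6, which encodes the vesicular glutamate transporter VGLUT2 that thalamic neurons carry, had the highest difference of the genes with the smallest p. It had 8.04, 8.71 and 9.51 in CR cortex, against 7.32, 7.92 and 8.49 in control cortex, a difference of 0.83 ± 0.20, or 77.8%, with an adjusted p of 0.189. Ntng1, netrin-G1, another thalamic marker, had 8.92, 9.37 and 9.81 in CR cortex, against 8.53, 8.86 and 9.05 in control cortex, a difference of 0.44 ± 0.13. Of 10 thalamic markers 8 were above 0 with a median of 0.19. Their mean per array ran from 7.88 to 8.60 in CR cortex, against 7.65 to 8.24 in control cortex, or 7.65 to 7.93 without control 8. With that mean as a covariate, which holds both genes, the Slc17a6 difference was 0.62 and that of Ntng1 was 0.25.

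Striatal markers were below 0 for 8 of 8 genes, with a median of -0.43, and were 0.19 in the mean of the other strains. Their array means overlapped, from 8.58 to 10.97 in CR cortex and from 8.98 to 11.03 in control cortex. Ppp1r1b, the striatal phosphoprotein DARPP-32, had 8.78, 9.59 and 10.88 in CR cortex, against 9.17, 10.53 and 11.08 in control cortex, a difference of -0.57 ± 0.30, or -0.22 with the striatal marker level as a covariate. Rgs9, a striatal regulator of G-protein signalling, differed by -0.68 ± 0.45, by -0.42 without CR 6 and by -0.13 with that covariate. Scn4b, a sodium channel subunit abundant in striatum, differed by -0.61 ± 0.31, and by -0.26 with it. The covariate holds Ppp1r1b and Rgs9 themselves, so their values shrink in part by construction, but it does not hold Scn4b. Hypothalamic markers rested on CR 1 and CR 2. Pmch, the melanin-concentrating hormone precursor, had 5.24, 5.42 and 9.58 in CR cortex, against 5.06, 5.38 and 5.46 in control cortex, and its difference of 0.96 ± 0.32 was 0.03 without those arrays, 0.49 without CR 1 alone and 0.63 without CR 2 alone. Hcrt, the orexin precursor, differed by 0.49 ± 0.16, by 0.21 without CR 1, by 0.31 without CR 2 and by -0.04 without both. Cerebellar markers had a median of -0.12, and 0.04 without control 8.

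**Figure D3:**
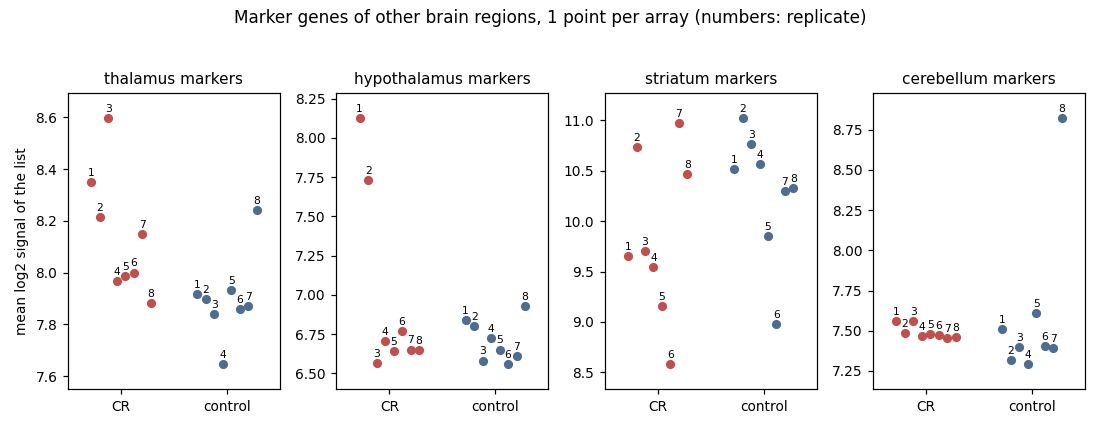
Mean log2 signal (vertical axes, a separate scale for each panel) of the marker genes of 4 brain regions in each DBA/2J array, with the replicate number beside each point and CR left of control. CR 1 and CR 2 stand at 8.13 and 7.73 for hypothalamus markers and control 8 at 8.82 for cerebellum markers, while striatum markers span over 2 log2 units in each group.

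The difference between DBA/2J and the other strains was tested directly. The DBA/2J and other-strain comparisons share no control arrays. The DBA/2J difference minus the mean difference of the other 6 strains passed the adjusted test for 0 genes (0%) in limma, and it had an unadjusted p under 0.01 for 133 genes (0.667%). DBA/2J lay above the other strains for 82 of these (0.411%) and below them for 51 (0.256%). Jun had the smallest p, with 0.33 in DBA/2J, against -0.06 in the mean of the other strains and single strains between -0.22 and 0.14. The difference between them was 0.38 ± 0.08 with an adjusted p of 0.22. Vegfa, at 0.18 in DBA/2J and -0.04 in the mean of the other strains, differed by 0.22 ± 0.05. Cfap65, at -0.21 in DBA/2J and 0.04 in the other strains, differed by -0.24 ± 0.06, and Apcdd1, at -0.26 and 0.02, by -0.27 ± 0.06. Nt5dc3, a 5'-nucleotidase domain protein, was 0.24 ± 0.07 in DBA/2J and -0.03 in the other strains.

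**Figure D4:**
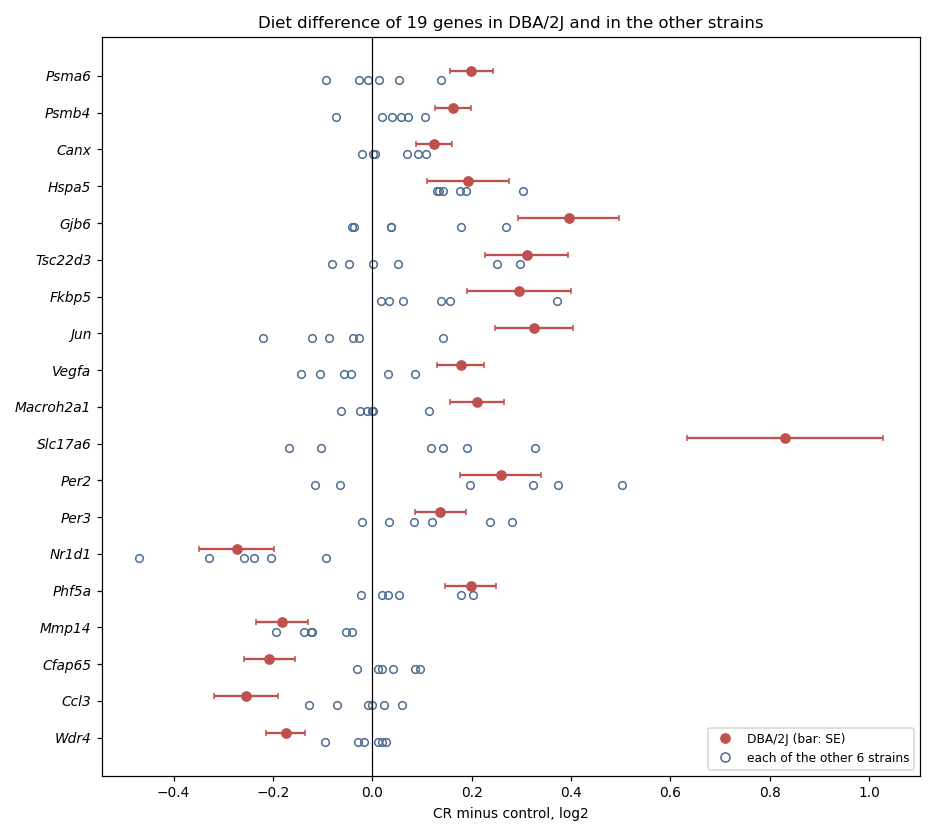
CR minus control (horizontal axis, log2) of 19 genes in DBA/2J (filled red points, bars for the SE) and in each of the other 6 strains (open blue points). The DBA/2J value of Jun, 0.33, lies above all 6 other strains, which run from -0.22 to 0.14, whereas the DBA/2J value of Nr1d1, -0.27, lies among them.

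The number of calls in DBA/2J was within the range of the single strains. With the same model, 0 genes were called in DBA/2J, Balbc/J, C3H/HeJ and B6C3F1/J, 1 gene in 129S1/SvImJ, 17 genes in C57BL6/J and 20 genes in CBA/J. At an unadjusted p under 0.01 the counts were 286 genes in DBA/2J, 363 in 129S1/SvImJ, 346 in Balbc/J, 630 in C57BL6/J, 99 in C3H/HeJ, 491 in CBA/J and 330 in B6C3F1/J. Across 19938 genes, which are not independent replicates, the DBA/2J differences correlated at r = 0.31 with those of 129S1/SvImJ, 0.17 with CBA/J, 0.11 with Balbc/J, 0.01 with C57BL6/J, -0.002 with B6C3F1/J and -0.06 with C3H/HeJ. Tissue beside the cortex that varied between dissections enters such correlations, and its part was not tested.

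The mean of the other 6 strains, which has 6 times as many arrays, gave 272 called genes (1.36%). In DBA/2J 228 of these 272 genes (83.8%) had the sign of the other strains, against 11407 of 19938 genes (57.2%) overall. The share was 100 of the 117 genes that were higher under CR in the other strains (85.5%) and 128 of the 155 that were lower (82.6%). Control arrays rich in cerebellum were present in DBA/2J, C57BL6/J and B6C3F1/J. The 13 measured cerebellar markers had a median of -0.12 in DBA/2J and -0.14 in the mean of the other strains. The part of these arrays in the shared signs was not tested. The median of the 272 differences, taken in the direction of the other strains, was 0.07 in DBA/2J, against a median size of 0.09 in the other strains, where the genes had been chosen for their size. An unadjusted p under 0.01 with the same sign was reached in DBA/2J by 28 of the 272 genes, or 10.3%, against 236 of 19938 genes (1.18%) overall. Of the 28, 20 were higher and 8 lower, and 0 of the 272 had an unadjusted limma p under 0.01 with the opposite sign, against 1 under 0.05. For 9 of the 272 genes the DBA/2J difference and that of the other strains differed at an unadjusted p under 0.01.

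The 28 genes held clock genes (Nr1d1, Per2 and Per3), splicing factors (Phf5a, Srsf3 and Lsm8), the sterol enzyme gene Fdps, the insulin receptor substrate gene Irs2 and the astrocyte connexin gene Gja1. Srsf3, a serine and arginine-rich splicing factor, averaged 10.75 ± 0.06 in CR cortex and 10.54 ± 0.14 in control cortex (SD, n = 8 each), a difference of 0.21 ± 0.07 in DBA/2J, against 0.12 ± 0.03 in the other strains. Nat8, an N-acetyltransferase, averaged 7.18 ± 0.11 in CR cortex and 6.96 ± 0.11 in control cortex, a difference of 0.22 ± 0.06, against 0.14 ± 0.03 in the other strains. Map3k19, a kinase gene, differed by 0.24 ± 0.08 in DBA/2J and by 0.21 ± 0.03 in the other strains. Prxl2a, a peroxiredoxin-like antioxidant gene whose CR and control arrays did not overlap, differed by 0.20 ± 0.06 in DBA/2J and by 0.11 ± 0.02 in the other strains. Mlec, an ER lectin of glycoprotein quality control, differed by 0.14 ± 0.05 in DBA/2J, against 0.08 ± 0.02 in the other strains.

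**Figure D5:**
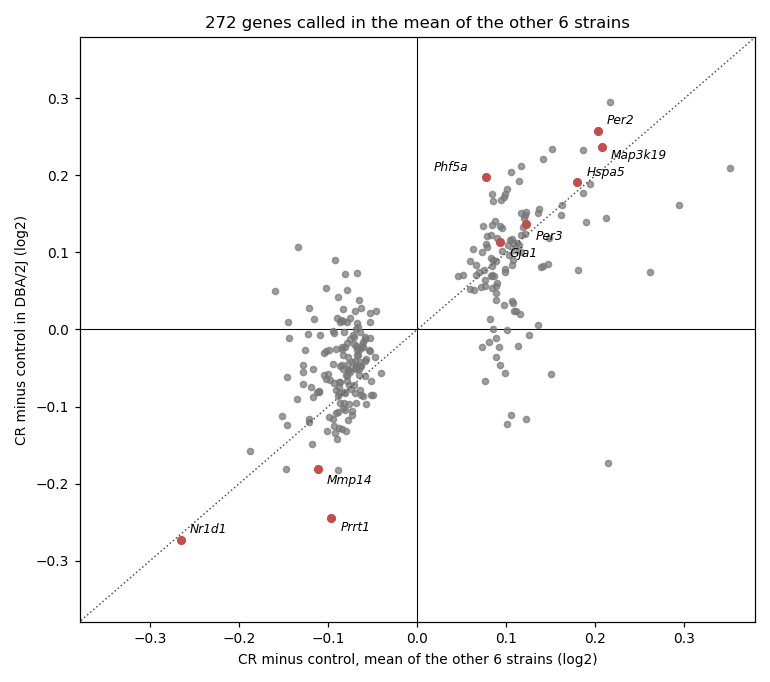
CR minus control (log2) of the 272 genes called in the mean of the other 6 strains, with the value in the other strains on the horizontal axis and the value in DBA/2J on the vertical axis, 1 point per gene, 9 of them named in red and equality as the dotted line. Of the 272 points, 228 lie in the quadrants where both values have the same sign.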

How the data were processed

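Cortical RNA of 112 mice was hybridised to Affymetrix Gene 1.0 ST arrays, 1 array per mouse. The deposited log2 signals had been made by the authors with the gene-level RMA-Sketch method of Expression Console, and the sources used here do not state its version. RMA normalizes the arrays jointly and compresses low signals, so small differences of dim genes may be understated. Per-array read depth does not apply, and the number of arrays limits the precision. Of 35556 probe sets, 21789 had exactly 1 symbol in the platform annotation, 1621 had several and 12146 had none, and only the first kind was named. For the 999 genes with more than 1 probe set, the one with the highest mean over 112 arrays was kept, which left 19938 genes. No filter on dim genes was applied.

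Groups were taken from the labels. A model with 1 mean per strain and diet was fitted to all 112 arrays with limma 3.58.1 in R 4.3.3, so that the spread was shared over the groups (98 residual degrees of freedom). The contrasts were CR minus control in DBA/2J, and that contrast minus its mean over the other 6 strains. P-values were adjusted by Benjamini-Hochberg over 19938 genes, and a gene was called at an adjusted p under 0.05. The study tested each strain by t-test at p under 0.01, and it selected the genes that reached this in several strains. It also ran an analysis of variance over all strains. Only the count from the t-test within DBA/2J is given beside limma's. Differences were small, so an unadjusted p is shown as a description. The design was also run on simulated data made from the fitted means and residual spreads, with independent noise for each gene. The arrays are separate mice by their labels.

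The genes named in the text were drawn from 3 sources. These were the 14 with the smallest p in each direction, those with the smallest p against the other strains, and list members with the smallest p up to a fixed number. For the first 2 sources, predicted gene models, unnamed clones, small RNAs and olfactory, vomeronasal and taste receptors were passed over. Not every gene drawn is described, and Mypop, Tex38 and Zeb2os, among the 14 with CR lower, are not. Genes whose groups did not overlap and genes shared with the other strains were named beside these. The 42 lists held 671 genes, of which 607 were measured, and they came from textbook knowledge. Members and lists were chosen with earlier results of these data known, so they give no independent support and carry no test. A difference of d log2 units is printed as a percentage where stated. Promoters were taken from a RefSeq table of build GRCm38.p6. In all, 34 alternatives were tried, of which 5 were chosen after seeing the data: without CR 1 and CR 2, without these and control 8, without control 8 and 1 cerebellum-rich control array each of C57BL6/J and B6C3F1/J, and the striatal or the thalamic marker level as a covariate.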

Additional observations from a re-analysis of the deposited data

Results flagged for a closer look

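Among 100 sets of values tested in the DBA/2J groups of 8, 5 had an array far from its group, and chance alone marks about 1 set in 20. Control 8 stood apart for the mean of the cerebellar markers at 8.82, for the mean of the layer and projection neuron markers at 9.28, and for Prrt1 at 9.14. CR 3 stood apart for Vegfa at 9.51, the highest of the CR arrays. Control 5 stood apart for the mean of the choroid plexus markers at 8.53. No cause of these values was tested.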

How the results depend on the processing

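No gene was called in DBA/2J in the analysis as described, and the count of called genes was 10 with array weights (Fmo2, Gjb6, Macroh2a1, Nr1d1, Phf5a, Psma6, Psmb4, Rtp1, Slc27a2 and Wdr4), 2 without CR 1, CR 2 and control 8 (Rtp1 and Wdr4), and 2 without DBA/2J control 8, C57BL6/J control 6 and B6C3F1/J control 8 (Grm3 and Wdr4). Leaving out single arrays gave 0 to 2 calls, which were Apcdd1 and Psma6 without control 6, Psma6 and Psmb4 without control 7, and Wdr4 without control 8. The 286 genes at an unadjusted p under 0.01 became 566 with array weights, 430 with the cerebellar marker level as a covariate, 437 without those 3 control arrays, and 206 to 393 when single arrays were left out. The 133 genes that differed from the other strains became 85 among genes above the median gene, 298 with array weights, 212 with the cerebellar covariate, 228 without the 3 control arrays, and 100 to 186 when single arrays were left out. No gene was called against the other strains under any alternative run. Of the named differences, only that of Hcrt changed sign, to -0.038 without CR 1 and CR 2. With the replicate block 0 genes were called and 277 had an unadjusted p under 0.01. The labels number the mice but state no pairing. Correlations of same-numbered arrays ran from -0.177 to 0.285, with 4 of 8 over 0.1. Of the CR arrays, 1 of 8 correlated best with the control array of its own number. These values do not settle whether same-numbered mice were linked. The cause of these shifts was not tested. With 8 arrays a group the median standard error was 0.0681, so differences well under a change of 20% could not be told from 0 for most genes.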
